A study of Mus musculus with 9 samples.

Results

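The genes described here are 53 genes of DNA replication and S phase, chosen by name from the 24505 rows of the count table. They encode the MCM helicase, the factors that load and activate it, the polymerases and primase, the sliding clamp and its loader, single-strand binding and lagging-strand proteins, enzymes of nucleotide supply, and factors that protect the fork and rebuild chromatin behind it. All 53 had a row, all 53 passed the filter on low counts in each of the 3 comparisons, and the lowest count of any of them in any library was 53 reads. The mRNA was sequenced from sorted germ cells of mice in which spermatogenesis had been synchronized, with 3 libraries in each of 3 groups. All mice carried the Uchl1-eGfp transgene, in which the Uchl1 promoter drives EGFP in germ cells, on a C57BL/6 background outcrossed to CD-1. Every group received bis-(dichloroacetyl)-diamine, an inhibitor of retinoic acid (RA) synthesis, at 100 µg per g from postnatal day (P) 1, followed by a single injection of 10 µl RA at 10 µg per µl on P11. In/B spermatogonia were sorted on P17, as the last mitotic generations before meiosis. Preleptotene (PL) spermatocytes were sorted on P19 and were either RA-sufficient, with the inhibitor stopped after the RA injection, or RA-deficient, with the inhibitor continued daily until collection. The paper describes the In/B spermatogonia of P17 as RA-sufficient. RA-deficient PL thus differed from In/B in stage, age and continued inhibitor together, which that comparison cannot separate. A preparation pooled at least 5 pups of a litter. The number of independent preparations is given in the methods only as a pair or a trio, so p-values measure the spread between libraries, part of which may be technical.

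Preleptotene spermatocytes carry out the last round of DNA replication before the meiotic divisions, premeiotic S phase. In every S phase, origins are first bound by the origin recognition complex, which with CDC6 and CDT1 loads the MCM helicase in an inactive form; CDC45 and the GINS complex then activate the helicase, and polymerases alpha, delta and epsilon copy the DNA. In dividing cells many of these genes are transcribed together around the start of S phase under E2F transcription factors. The comparisons asked how the mRNAs of this machinery differed between the last spermatogonia and the spermatocytes that enter meiosis, and whether they differed between spermatocytes that had or lacked RA synthesis.

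Total counts ran from 12612959 to 27042274 per library. Levels below are in CPM, the reads of a gene scaled by the TMM method to a library size common to all 9 libraries. Replicates 1 and 2 of the RA-deficient group stood apart from replicate 3 in spermatogonial markers, though replicate 3 was not at the RA-sufficient level. The sum of 8 such markers was 5439, 3733 and 3628 CPM in In/B and 653, 899 and 770 in RA-sufficient PL. In RA-deficient PL it was 3223, 3336 and 1502 CPM, above every RA-sufficient library in each replicate. Kit, the receptor that marks differentiating spermatogonia, was at 404, 327 and 331 CPM in In/B, 41.0, 32.8 and 20.2 in RA-sufficient PL and 561, 521 and 20.3 in RA-deficient PL, and Dmrt1, which marks spermatogonia, was at 711, 538 and 534 CPM in In/B, 72.1, 76.8 and 72.8 in RA-sufficient PL and 460.2, 485 and 111 in RA-deficient PL. Stra8, an RA-induced gene of meiotic entry, was at 444, 126 and 121 CPM with RA and 377, 365 and 81.5 without. Meiotic markers were present in every PL library, with Dmc1, the meiotic recombinase, at 360.0, 632 and 747 CPM with RA and 445, 451 and 671 without. The sum of 10 such markers was already 1352 to 2273 CPM in In/B, against 4279 to 5559 with RA and 5469 to 6345 without. In each PL group 7 of the 10 were called higher than in In/B and 0 lower. Of all genes tested, 33.8% were called higher with RA and 18.4% without, and 31.2% and 18.3% lower. Sertoli cell markers moved with the groups as well. The summed level of 9 markers was 69.8 to 366 CPM in In/B, 2948 to 3874 in RA-sufficient PL and 299 to 518 in RA-deficient PL. Fshr, a defining Sertoli marker, had 0 counts in RA-deficient replicates 1 and 2, where the sum of the 9 was 299 and 311 CPM. Against In/B, 8 of the 9 had a positive log2 fold change in RA-deficient PL. There 2 were called higher (22.2%, beside 18.4% of all genes tested) and 0 lower. Of 8 peritubular and stromal markers the sum was 103 to 164 CPM in In/B, 1006 to 1375 in RA-sufficient PL and 158 to 202 in RA-deficient PL. Markers of Leydig cells, macrophages and blood, and endothelium summed to at most 38.6, 15.9 and 17.2 CPM in any library, and the globins Hbb-b1 and Hba-a1 had 0 counts throughout. The sum of 5 general germ cell markers was 2416 to 2894 CPM in In/B, 3262 to 4286 in RA-sufficient PL and 5689 to 5725 in RA-deficient PL. Between the PL groups all 5 were positive without RA, with 2 called higher (40%, beside 11% of all genes tested). The part of Sertoli and stromal RNA, of the germ cell marker difference, and of the spermatogonial signal in the RA-deficient libraries, in the results below was not tested. In sorted bulk samples, fewer cells in S phase and less mRNA per cell cannot be told apart.

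Promoter sequences are shown for 4 genes chosen after their values were seen: Mcm2 and Mcm5, subunits of the same helicase with opposite differences from In/B, and Pole2, the accessory subunit of polymerase epsilon, and Rrm2, the small subunit of ribonucleotide reductase, which differed between the PL groups. Each is the 250 bases before the annotated start in RefSeq, build GRCm38.p6, printed 5′ to 3′ on the strand of the gene. In the mm9 build used for alignment, the genes lie at chr6:88833469-88848774 (Mcm2, minus strand), chr8:77633427-77652338 (Mcm5, plus strand), chr12:70302766-70329177 (Pole2, minus strand) and chr12:25393106-25399011 (Rrm2, plus strand). Capitals mark E2F-type words, CCAAT, and TTTGAA on either strand, where overlapping words run together.
Mcm2 (chr6:88898781-88899030, minus strand): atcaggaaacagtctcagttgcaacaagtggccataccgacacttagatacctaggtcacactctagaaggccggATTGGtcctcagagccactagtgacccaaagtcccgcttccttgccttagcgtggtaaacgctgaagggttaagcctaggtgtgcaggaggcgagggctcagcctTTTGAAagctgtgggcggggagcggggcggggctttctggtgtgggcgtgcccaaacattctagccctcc
Mcm5 (chr8:75109259-75109508, plus strand): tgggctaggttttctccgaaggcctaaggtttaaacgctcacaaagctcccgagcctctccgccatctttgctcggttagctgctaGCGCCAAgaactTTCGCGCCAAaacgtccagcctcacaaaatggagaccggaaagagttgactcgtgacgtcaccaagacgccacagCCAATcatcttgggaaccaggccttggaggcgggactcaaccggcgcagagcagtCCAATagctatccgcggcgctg
Pole2 (chr12:69228191-69228440, minus strand): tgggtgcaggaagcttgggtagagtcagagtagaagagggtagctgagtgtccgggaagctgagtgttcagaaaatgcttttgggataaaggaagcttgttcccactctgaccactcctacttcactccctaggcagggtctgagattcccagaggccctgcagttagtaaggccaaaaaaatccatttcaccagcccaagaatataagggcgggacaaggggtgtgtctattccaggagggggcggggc
Rrm2 (chr12:24708004-24708253, plus strand): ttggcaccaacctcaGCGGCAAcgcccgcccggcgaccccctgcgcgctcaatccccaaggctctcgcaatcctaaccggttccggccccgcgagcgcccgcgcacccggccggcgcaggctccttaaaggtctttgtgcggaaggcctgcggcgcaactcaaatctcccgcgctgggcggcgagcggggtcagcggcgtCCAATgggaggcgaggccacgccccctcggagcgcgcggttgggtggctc
The E2F-type words searched were TTCCCGC or TTCGCGC or TTGCCGC or TTGGCGC on both strands, in windows of 300 bases from 250 before to 50 after the start. Mcm5 held 3 of them upstream, at -164, -152 and -149 from the start, Rrm2 held 1 at -235, Pole2 held 1 at 11 bases after the start, outside the printed stretch, and Mcm2 held none in its window. RefSeq promoters matched 44 of the 53 genes, with 53 promoters among them. An E2F-type word was found in 60.4% of these promoters and in 9.6% of all 32851 promoters. This set of words was kept after 5 definitions had been looked at. The others gave 30.2% against 2.3% for the same words extended by a leading T (TTTCCCGC, TTTCGCGC, TTTGCCGC and TTTGGCGC), 50.9% against 37.4% for CCAAT, 15.1% against 17.9% for TTTGAA and 17% against 7.2% for CACGTG. These are matches of letters in a window and say nothing of binding.

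In RA-sufficient PL most replication genes were lower than in In/B spermatogonia. Of the 53, 34 were lower and 4 higher at an adjusted p below 0.05 (quasi-likelihood test of edgeR, adjusted over all genes tested by Benjamini and Hochberg), and 15 did not pass. Over 2-fold, 21 were lower and 1 was higher, where 19.3% and 26.1% of all genes tested were. Of all 15001 genes tested, 31.2% were lower and 33.8% higher by the same rule, against 64.2% and 7.55% of the replication genes, and the median log2 fold change was -0.80 over the replication genes and 0.04 over all genes tested. The largest falls were in Cdt1, Pole2, Pold2, Tyms and Mcm2, and the 4 genes that were higher were Mcm8, Gins3, Pole and Chaf1b. With each of the 6 libraries left out in turn, 31 of the 38 calls held in every fit. The other 7 held in 5 fits for Mcm8 and Gmnn, 4 for Rrm2, 3 for Gins3, 2 for Orc6, 1 for Pole and 0 for Dbf4.

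In RA-deficient PL fewer replication genes were lower than In/B, and the share that was higher was near that of all genes tested. Against In/B, 20 genes were lower and 12 higher, of which 12 and 5 were over 2-fold (11.8% and 11.4% of all genes tested were), while 21 did not pass. The background was 18.3% lower and 18.4% higher among 14877 genes tested, against 37.7% and 22.6% of the replication genes, and the medians were -0.33 and 0.00. Scaled by library size alone, which moved the median of all genes in this comparison to -0.31, 27 replication genes were lower and 7 higher, with a median of -0.64. Of the 32 calls, 24 held in every fit with a library left out, and the other 8 held in 5 of 6 fits for Gins2, 4 for Cdc7, 2 for Mcm2, Cdt1, Gins4 and Fen1, and 1 for Pola1 and Rfc3. The In/B libraries are shared, so the 2 comparisons are not independent. The plot of fold changes by role sets them side by side.

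**Figure D1:**
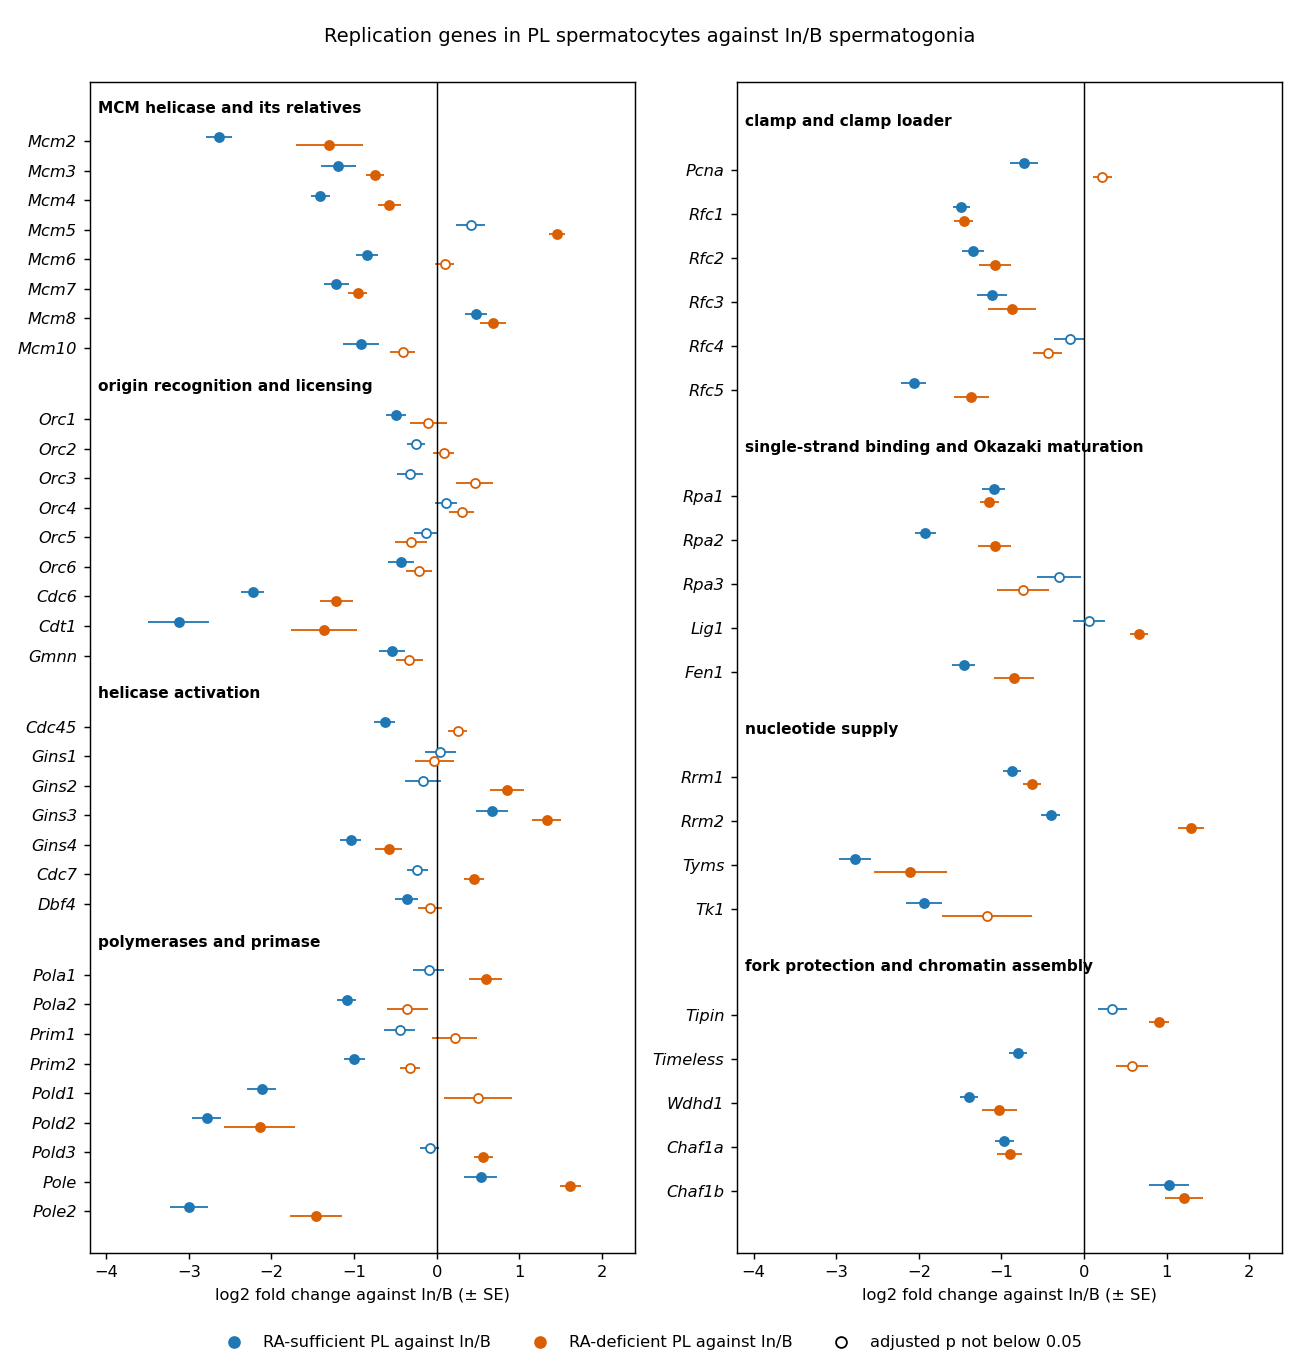
Log2 fold change (± SE, 3 libraries a group) of each of the 53 replication genes against In/B spermatogonia in RA-sufficient PL (blue) and RA-deficient PL (orange), grouped by role, with open circles where the adjusted p was not below 0.05. Of the 53 points, 44 lie left of 0 with RA and 32 without, while Mcm8, Pole, Gins3 and Chaf1b lie to the right in both groups.

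Summed over the 53 genes, the level was 9510 to 10430 CPM in In/B, 5288 to 6903 in RA-sufficient PL and 9039 to 10020 in RA-deficient PL. The RA-sufficient libraries were below all others, and the RA-deficient libraries overlapped In/B. That overlap rested on Pole and Mcm5: without these 2 genes the other 51 summed to 8618, 9315 and 8916 CPM in In/B, 4275, 4837 and 5259 in RA-sufficient PL and 7330, 7366 and 6163 in RA-deficient PL, so that the RA-deficient libraries lay below In/B and above RA-sufficient PL. By role, the polymerases and primase summed to 1540 to 1808 CPM in In/B, 1120 to 1493 in RA-sufficient PL and 2418 to 2745 in RA-deficient PL, so that the 3 groups did not overlap. The gap between RA-deficient PL and In/B rested on Pole: the other 8 genes of the role summed to 1052, 1158 and 1103 CPM in In/B, 529, 485 and 534 in RA-sufficient PL and 1121, 1163 and 674 in RA-deficient PL, where replicate 3 lay below every In/B library and the others near them. Both sums were added after the values were seen. The clamp and its loader were lower than In/B in both PL groups, at 895 to 1031, 381 to 469 and 494 to 538 CPM.

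**Figure D2:**
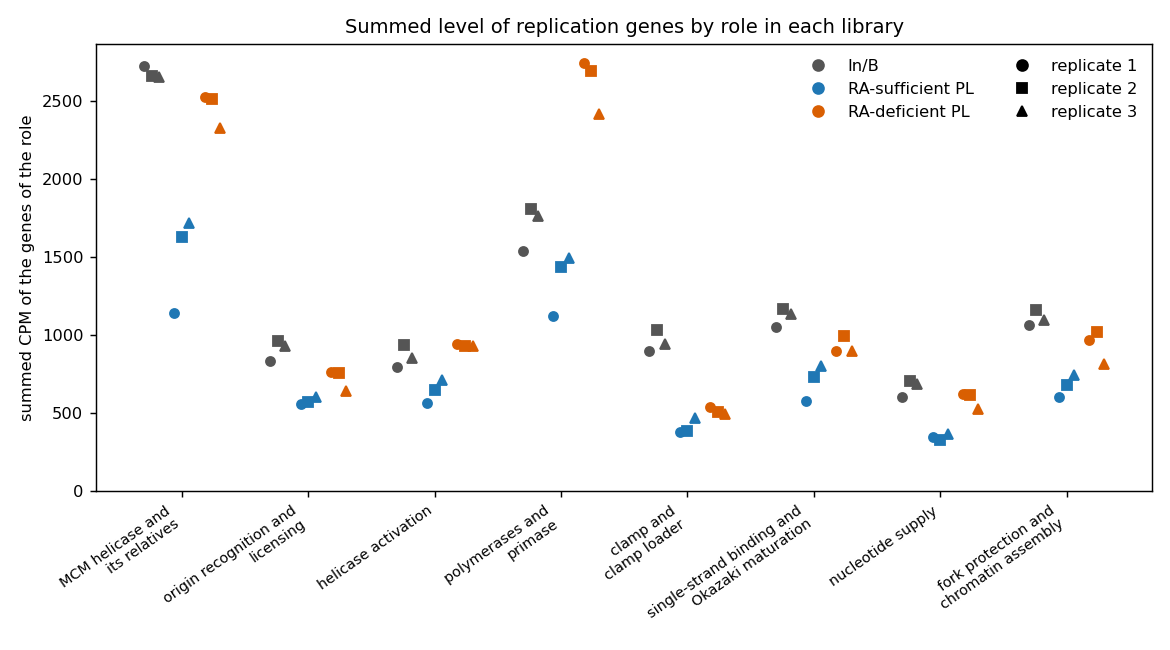
Summed CPM of the genes of each role (vertical axis, starting at 0) in every library, coloured by group and marked by replicate. The polymerases and primase sum to 2418 to 2745 CPM in RA-deficient PL, of which Pole makes up 1531 to 1744, and the clamp and clamp loader are highest in In/B, at 895 to 1031 CPM.

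The MCM helicase is a ring of 6 different subunits, Mcm2 to Mcm7. With Mcm8 and Mcm10, this role had 6 of 8 genes lower and 1 higher with RA (75% and 12.5%). Without RA 4 were lower and 2 higher (50% and 25%), and 3 were higher than with RA (37.5%). Of all genes tested, 31.2% were lower and 33.8% higher with RA. Without RA 18.3% were lower and 18.4% higher than In/B, and 11% were higher than with RA. Mcm2 was at 505, 454 and 431 CPM in In/B, 57.4, 81.6 and 76.7 in RA-sufficient PL and 227, 210.3 and 65.0 in RA-deficient PL. It fell in RA-sufficient PL (log2 fold change -2.63 ± 0.16, adjusted p = 1.1e-05) and in RA-deficient PL (-1.30 ± 0.40, adjusted p = 0.0364), where replicate 3 lay among the RA-sufficient libraries and the other two lay between the groups. Mcm5 went the other way, at 405, 468 and 477 CPM in In/B, 422, 617 and 685 in RA-sufficient PL and 1048, 1120.3 and 1133 in RA-deficient PL. It was not called with RA (0.41 ± 0.17, adjusted p = 0.0659), rose against In/B without RA (1.46 ± 0.10, adjusted p = 6.9e-05), and was higher in RA-deficient than in RA-sufficient PL in every library (0.94 ± 0.16, adjusted p = 0.00753). Mcm3, Mcm4 and Mcm7 fell in both PL groups, with log2 fold changes of -1.19 ± 0.21, -1.41 ± 0.11 and -1.22 ± 0.15 with RA and -0.75 ± 0.10, -0.57 ± 0.14 and -0.95 ± 0.12 without. Mcm6 fell with RA (-0.84 ± 0.13, adjusted p = 0.000665) and was at 397, 376 and 391 CPM in In/B, 170.4, 226 and 229 in RA-sufficient PL and 400.0, 384 and 325 in RA-deficient PL, without RA within 1 SE of no change from In/B (0.10 ± 0.12, adjusted p = 0.571). Between the PL groups, Mcm4 (0.72 ± 0.14, adjusted p = 0.0112) and Mcm6 (0.83 ± 0.14, adjusted p = 0.00704) were higher without RA, while Mcm2 did not pass (1.22 ± 0.43, adjusted p = 0.0784).

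The levels of the ring subunits lay further apart in PL than in In/B libraries. Per kilobase of exon, the highest of the 6 subunits exceeded the lowest by 1.95 to 2.20 times in the In/B libraries, by 7.09 to 8.60 times in RA-sufficient PL and by 8.65 to 16.8 times in RA-deficient PL. Mcm3 was the highest in each In/B library and Mcm5 in each of the 6 PL libraries. The ratio of Mcm5 to Mcm2 per kilobase was 0.773, 0.993 and 1.07 in In/B, 7.09, 7.29 and 8.60 in RA-sufficient PL and 4.44, 5.13 and 16.8 in RA-deficient PL. This pair was chosen after the values were seen, so the ratio is given with no test.

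**Figure D3:**
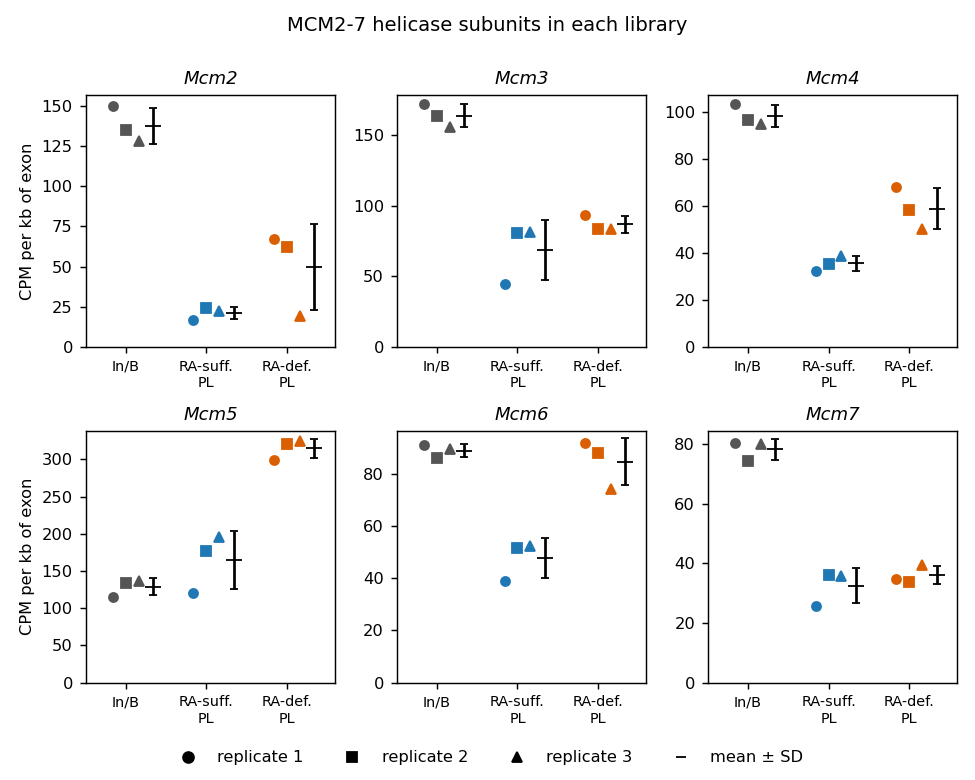
Level of Mcm2 to Mcm7 in CPM per kilobase of exon (vertical axes, starting at 0) in each library, with the mean ± SD of 3 libraries in black. The 6 subunits lie within 1.95 to 2.20 times of each other in In/B, and in PL libraries Mcm5 lies above the rest.

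Mcm8, which acts in meiotic recombination with its partner Mcm9 and is no part of the ring, rose in RA-sufficient PL (0.48 ± 0.13, adjusted p = 0.0123) and in RA-deficient PL (0.68 ± 0.15, adjusted p = 0.0108). It was at 73.2, 81.3 and 78.5 CPM in In/B, 88.9, 106 and 118 in RA-sufficient PL and 90.9, 124 and 118 in RA-deficient PL, and the PL groups overlapped. Mcm10, a helicase activator, fell with RA (-0.92 ± 0.21, adjusted p = 0.00496) and did not pass without (-0.41 ± 0.15, adjusted p = 0.0592).

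Of the 9 licensing genes, 5 fell with RA and 2 without, and 2 were higher without RA than with. The 2 that fell without RA were 22.2% of the role, near the 18.3% of all genes tested. The 5 that fell with RA were 55.6%, beside 31.2%, and the 2 higher without RA than with were 22.2%, beside 11%. Cdt1, which brings MCM to origins and is limited to G1, was at 91.5, 74.7 and 67.1 CPM in In/B, 3.90, 12.1 and 9.62 in RA-sufficient PL and 31.1, 38.3 and 11.3 in RA-deficient PL. It had the largest fall of all 53 genes with RA (-3.12 ± 0.37, adjusted p = 0.000136) and a smaller one without (-1.36 ± 0.41, adjusted p = 0.0312), and the difference between the PL groups did not pass (1.66 ± 0.55, adjusted p = 0.0685). Cdc6, the ATPase that loads MCM with CDT1, was at 114, 147 and 141 CPM in In/B, 27.6, 26.8 and 28.1 in RA-sufficient PL and 55.8, 59.3 and 38.8 in RA-deficient PL, with no overlap between any pair of groups. It fell in RA-sufficient PL (-2.23 ± 0.14, adjusted p = 1.15e-05), fell less in RA-deficient PL (-1.22 ± 0.20, adjusted p = 0.00232), and was higher in RA-deficient than in RA-sufficient PL (0.895 ± 0.21, adjusted p = 0.0243). Gmnn, which encodes geminin, the inhibitor of CDT1, was at 73.9, 67.9 and 63.0 CPM in In/B, 46.6, 38.3 and 50.9 in RA-sufficient PL and 42.3, 47.5 and 55.3 in RA-deficient PL. It fell with RA (-0.54 ± 0.15, adjusted p = 0.0134) and did not pass without (-0.33 ± 0.17, adjusted p = 0.159).

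Of the 6 origin recognition subunits, Orc1 (-0.49 ± 0.12, adjusted p = 0.00674) and Orc6 (-0.43 ± 0.16, adjusted p = 0.0382) fell with RA, and none passed against In/B without RA. Orc1, the subunit whose protein is removed during S phase, was at 116, 101 and 101 CPM in In/B, 70.7, 72.3 and 74.6 in RA-sufficient PL and 116, 84.4 and 63.8 in RA-deficient PL. Orc3 was higher in RA-deficient than in RA-sufficient PL (0.67 ± 0.20, adjusted p = 0.0463), at 173, 181 and 113 against 103, 96.5 and 93.6 CPM. Orc2, Orc4 and Orc5 passed in no comparison, with log2 fold changes between -0.31 ± 0.20 and 0.30 ± 0.16 over the 3 comparisons.

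Of the 7 helicase activation genes, 3 fell and 1 rose with RA, 1 fell and 3 rose without, and 3 were higher without RA than with. As shares these were 42.9% and 14.3%, 14.3% and 42.9%, and 42.9%. Among all genes tested they were 31.2% and 33.8%, 18.3% and 18.4%, and 11%, so the fall without RA was near background. Gins3 rose with RA (0.67 ± 0.20, adjusted p = 0.0156) and without (1.33 ± 0.18, adjusted p = 0.000969), at 28.1, 37.4 and 27.9 CPM in In/B, 37.7, 48.6 and 56.3 in RA-sufficient PL and 64.7, 77.2 and 66.5 in RA-deficient PL. Gins4, another subunit of the same complex, fell in both (-1.04 ± 0.13, adjusted p = 0.00016 with RA and -0.58 ± 0.17, adjusted p = 0.0264 without), at 74.1, 77.3 and 73.1 CPM in In/B, 34.1, 34.0 and 36.8 in RA-sufficient PL and 50.3, 46.3 and 36.9 in RA-deficient PL. Gins1 passed in no comparison. Gins2 rose without RA (0.85 ± 0.20, adjusted p = 0.0138) and was higher in RA-deficient than in RA-sufficient PL (0.90 ± 0.19, adjusted p = 0.017), but 67.3% of its exonic length overlaps a gene on the opposite strand, Gse1, and the strand setting of the counting is not given in the sources used here, so its values are uncertain. Cdc45, which joins GINS and MCM in the active helicase, was at 232, 296 and 277 CPM in In/B, 151, 162 and 188 in RA-sufficient PL and 294, 284 and 275 in RA-deficient PL. It fell with RA (-0.63 ± 0.13, adjusted p = 0.00258), did not pass without (0.25 ± 0.11, adjusted p = 0.123) and was higher in RA-deficient PL than in RA-sufficient PL (0.77 ± 0.11, adjusted p = 0.00376). Cdc7, the kinase that triggers origin firing, rose without RA (0.45 ± 0.12, adjusted p = 0.0189) and exceeded RA-sufficient PL (0.57 ± 0.10, adjusted p = 0.00975), while its activating subunit Dbf4 fell with RA (-0.36 ± 0.14, adjusted p = 0.0474), a call lost whichever library was left out (adjusted p up to 0.106), and did not pass in the other comparisons.

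Of the 9 polymerase and primase genes, 5 fell and 1 rose with RA, 2 fell and 3 rose without, and 5 were higher without RA than with. Their shares were 55.6% and 11.1%, 22.2% and 33.3%, and 55.6%. All genes tested gave 31.2% and 33.8%, 18.3% and 18.4%, and 11%, so the fall without RA was near background. Pole, the catalytic subunit of the leading-strand polymerase epsilon, was at 488, 650.2 and 659.6 CPM in In/B, 590.4, 949 and 959 in RA-sufficient PL and 1624, 1531 and 1744 in RA-deficient PL. It rose in both PL groups (0.53 ± 0.20, adjusted p = 0.042 with RA and 1.62 ± 0.13, adjusted p = 0.000115 without) and was higher without RA in every library (0.97 ± 0.17, adjusted p = 0.00882). Its call with RA held in 1 of the 6 fits that each omitted a library (adjusted p up to 0.138), and its call without RA in all 6. Pole2, its accessory subunit, fell in both (-2.998 ± 0.23, adjusted p = 2.08e-05 and -1.46 ± 0.31, adjusted p = 0.00817), at 42.9, 47.4 and 52.3 CPM in In/B, 7.36, 4.67 and 5.21 in RA-sufficient PL and 23.0, 13.2 and 10.0 in RA-deficient PL. Without RA it was higher than with RA (1.41 ± 0.41, adjusted p = 0.0458). The ratio of Pole to Pole2 per kilobase went from 2.01, 2.43 and 2.23 in In/B to 14.2, 35.9 and 32.6 in RA-sufficient PL and 12.5, 20.4 and 30.8 in RA-deficient PL, a pair chosen after its values were seen.

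Pold1, the catalytic subunit of the lagging-strand polymerase delta, was at 233, 256 and 214 CPM in In/B, 65.5, 43.2 and 46.9 in RA-sufficient PL and 379, 398 and 107 in RA-deficient PL. It fell with RA (-2.12 ± 0.17, adjusted p = 2.57e-05) and did not pass against In/B without RA (0.50 ± 0.42, adjusted p = 0.399), and its difference between the PL groups was the largest of the 53 genes (2.495 ± 0.48, adjusted p = 0.0121). RA-deficient replicate 3 lay far below the other two and still above each RA-sufficient library, and without it the log2 difference was 2.91. Pold2, an accessory subunit of the same enzyme, fell in both groups (-2.79 ± 0.17, adjusted p = 1.17e-05 and -2.14 ± 0.43, adjusted p = 0.00605), to 17.1, 21.4 and 22.4 and 33.4, 42.9 and 11.5 CPM from 170.0, 139 and 127. Pold3, another accessory subunit, was at 153, 153 and 167 CPM with RA and rose without RA (0.57 ± 0.12, adjusted p = 0.00803), exceeding RA-sufficient PL (0.53 ± 0.10, adjusted p = 0.0123).

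Polymerase alpha and primase start each new strand. The accessory subunit Pola2 (-1.09 ± 0.11, adjusted p = 7.91e-05) and the large primase subunit Prim2 (-0.998 ± 0.13, adjusted p = 0.000198) fell with RA and did not pass against In/B without it, and Prim2 was higher without RA than with (0.56 ± 0.13, adjusted p = 0.0223). The catalytic subunit Pola1 rose against In/B without RA (0.59 ± 0.20, adjusted p = 0.0456), at 50.5, 39.8 and 53.6 against 29.4, 39.6 and 38.4 CPM. Prim1, the catalytic primase subunit, passed in no comparison, and RA-deficient replicate 3 was at 82.7 CPM against 155 and 151 in replicates 1 and 2.

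**Figure D4:**
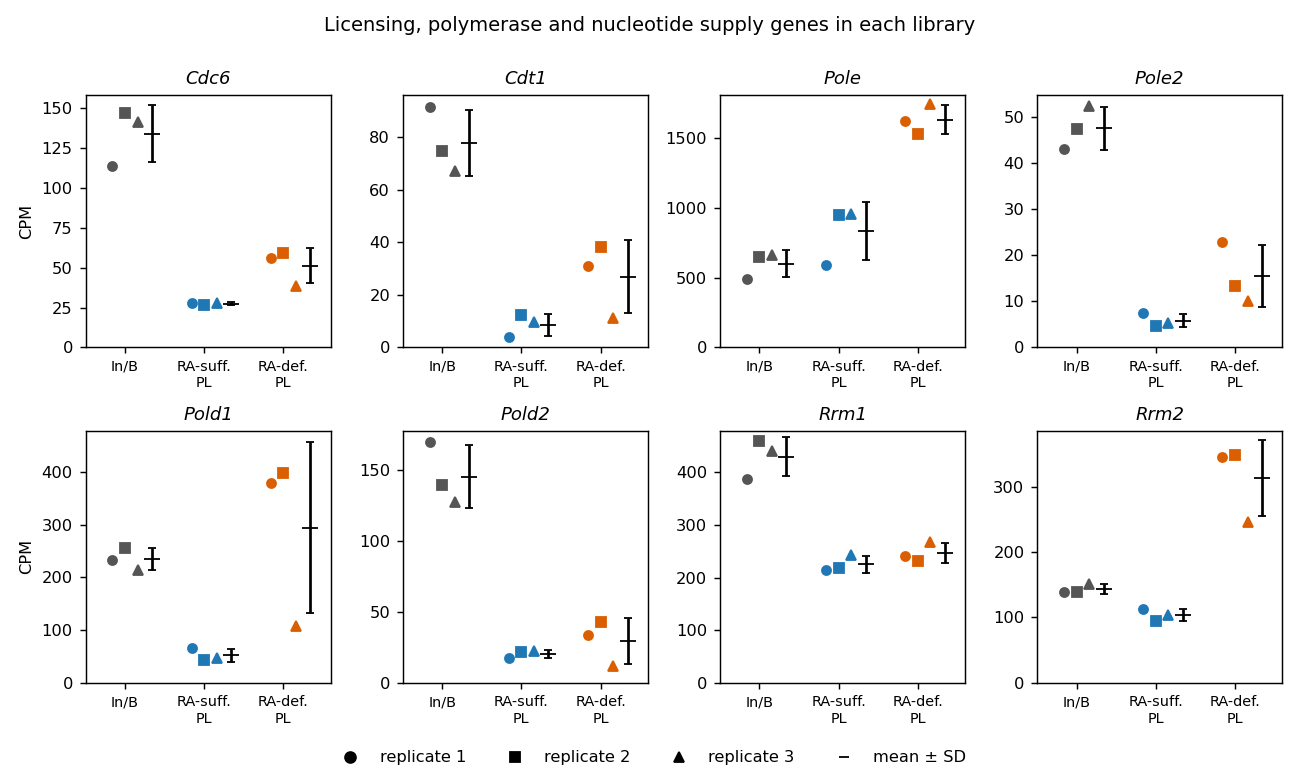
CPM (vertical axes, starting at 0) of Cdc6, Cdt1, Pole, Pole2, Pold1, Pold2, Rrm1 and Rrm2 in each library, with the mean ± SD of 3 libraries in black. Pole rises while Pole2 falls, and RA-deficient replicate 3 (triangle) lies below the other RA-deficient libraries for Pold1, at 107 CPM against 379 and 398.

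Of the 6 clamp and clamp loader genes, 5 fell with RA and 4 without, and 1 was higher without RA than with. That is 83.3%, 66.7% and 16.7% of the role, beside 31.2%, 18.3% and 11% of all genes tested. Pcna, the sliding clamp that holds polymerases on DNA, was at 218, 249 and 212 CPM in In/B, 116, 109 and 168 in RA-sufficient PL and 222, 220.1 and 260.4 in RA-deficient PL. It fell with RA (-0.73 ± 0.17, adjusted p = 0.00471), did not pass without (0.22 ± 0.12, adjusted p = 0.18) and was higher in RA-deficient than in RA-sufficient PL (0.84 ± 0.17, adjusted p = 0.0147). Of the 5 loader subunits, Rfc1, Rfc2, Rfc3 and Rfc5 fell in both PL groups and Rfc4 in neither. Rfc1, the large subunit, was at 388, 434 and 413 CPM in In/B, 138, 144 and 143 in RA-sufficient PL and 141, 138 and 121 in RA-deficient PL, with log2 fold changes of -1.48 ± 0.10, adjusted p = 1.43e-05 and -1.46 ± 0.11, adjusted p = 0.000107, and the PL groups differed by -0.09 ± 0.12, adjusted p = 0.599. Rfc5 had the largest fall of the loader with RA (-2.06 ± 0.15, adjusted p = 1.87e-05).

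Single-strand DNA is covered by replication protein A, a trimer of Rpa1, Rpa2 and Rpa3. Of the 5 genes of this role with the lagging-strand enzymes, 3 fell with RA, and 3 fell and 1 rose without. Between the PL groups 0 passed by edgeR's test, with adjusted p-values from 0.0538. The shares were 60%, 60% and 20%, and 0%, beside 31.2%, 18.3% and 18.4%, and 23.6% of all genes tested. Rpa1 fell in both PL groups (-1.10 ± 0.14, adjusted p = 0.000226 with RA and -1.15 ± 0.12, adjusted p = 0.000337 without), at 252, 282 and 258 CPM in In/B, 144, 107 and 105 in RA-sufficient PL and 108, 116 and 95.01 in RA-deficient PL. Rpa2 was at 248, 243 and 235 CPM in In/B, 52.1, 64.9 and 67.2 in RA-sufficient PL and 102, 129 and 73.0 in RA-deficient PL and fell in both (-1.92 ± 0.13, adjusted p = 1.46e-05 and -1.08 ± 0.20, adjusted p = 0.00446), and the difference between the PL groups did not pass (0.73 ± 0.22, adjusted p = 0.0538). Rpa3 passed in no comparison. Lig1, the ligase that joins Okazaki fragments, was not called with RA (0.06 ± 0.19, adjusted p = 0.801) and rose without (0.66 ± 0.10, adjusted p = 0.00202), at 407, 480.1 and 481 CPM in In/B, 321, 494 and 557 in RA-sufficient PL and 606, 656 and 669 in RA-deficient PL. Fen1, the flap nuclease that trims those fragments, fell in both (-1.46 ± 0.14, adjusted p = 5.49e-05 and -0.84 ± 0.24, adjusted p = 0.0273), with 84.2% of its exonic length overlapped on the opposite strand, which makes its values uncertain.

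All 4 genes of nucleotide supply fell with RA, and without RA 2 fell and 1 rose (50% and 25%). Of all genes tested, 31.2% fell with RA, and 18.3% fell and 18.4% rose without. Rrm2, the regulated small subunit of ribonucleotide reductase, was at 139, 139.5 and 152 CPM in In/B, 114, 95.3 and 104 in RA-sufficient PL and 345, 349 and 246 in RA-deficient PL, with no overlap between any pair of groups. It fell with RA (-0.41 ± 0.12, adjusted p = 0.0142), rose without (1.29 ± 0.16, adjusted p = 0.000679), and was higher in RA-deficient than in RA-sufficient PL (1.58 ± 0.17, adjusted p = 0.00179). Rrm1, the large subunit, fell in both (-0.88 ± 0.11, adjusted p = 0.00018 and -0.63 ± 0.11, adjusted p = 0.00318) and differed between the PL groups by 0.13 ± 0.10, adjusted p = 0.407. Tyms, thymidylate synthase, fell in both (-2.77 ± 0.19, adjusted p = 1.52e-05 and -2.10 ± 0.44, adjusted p = 0.00735), from 45.1, 58.0 and 54.1 CPM in In/B to 7.95, 6.37 and 7.81 with RA and 14.3, 14.1 and 4.07 without. Tk1, the S-phase thymidine kinase, was at 29.9, 48.4 and 39.1 CPM in In/B, 9.94, 10.2 and 9.26 in RA-sufficient PL and 23.4, 18.6 and 4.07 in RA-deficient PL, fell with RA (-1.94 ± 0.22, adjusted p = 0.000104) and did not pass without (-1.18 ± 0.55, adjusted p = 0.132), where replicate 3 lay below every RA-sufficient library and the other two above.

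Of the 5 genes of fork protection and chromatin assembly, 3 fell and 1 rose with RA (60% and 20%). Without RA 2 fell and 2 rose (40% and 40%), and 1 was higher than with RA (20%). The shares of all genes tested were 31.2% and 33.8%, 18.3% and 18.4%, and 11%. Timeless and Tipin form a complex that steadies stalled forks. Timeless was at 167, 189 and 179 CPM in In/B, 93.2, 99.2 and 103 in RA-sufficient PL and 272, 275 and 165 in RA-deficient PL. It fell with RA (-0.80 ± 0.11, adjusted p = 0.000251), did not pass against In/B without RA (0.58 ± 0.20, adjusted p = 0.0508) and was higher in RA-deficient than in RA-sufficient PL (1.26 ± 0.20, adjusted p = 0.0063). Tipin was at 180.3, 212 and 194 CPM in In/B, 173, 248 and 294 in RA-sufficient PL and 288, 334 and 357 in RA-deficient PL. It was not called with RA (0.34 ± 0.18, adjusted p = 0.125) and rose without (0.91 ± 0.12, adjusted p = 0.000927). Wdhd1, which couples the helicase to polymerase alpha, fell in both groups (-1.39 ± 0.11, adjusted p = 2.31e-05 and -1.03 ± 0.21, adjusted p = 0.00655), at 491, 479 and 463 CPM in In/B, 193, 164 and 169 in RA-sufficient PL and 242, 245 and 139.9 in RA-deficient PL. Within chromatin assembly factor 1, which places histones on new DNA, Chaf1a fell in both (-0.96 ± 0.11, adjusted p = 0.000136 and -0.90 ± 0.15, adjusted p = 0.00282), at 205, 256 and 239 CPM in In/B, 112, 119 and 115 in RA-sufficient PL and 120.3, 122 and 91.0 in RA-deficient PL. Chaf1b rose in both (1.02 ± 0.24, adjusted p = 0.00524 and 1.21 ± 0.23, adjusted p = 0.00459), at 19.7, 27.2 and 26.1 CPM in In/B, 33.3, 47.7 and 61.7 in RA-sufficient PL and 46.1, 40.7 and 63.1 in RA-deficient PL.

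Compared directly, RA-deficient PL had 16 replication genes higher than RA-sufficient PL and 0 lower, and 37 did not pass. Of 15352 genes tested, 11% were higher and 12.6% lower by the same rule, against 30.2% and 0% of the replication genes. The median log2 difference was 0.53 over the replication genes and -0.09 over all genes tested. By edgeR's test at an unadjusted p below 0.05, 24 passed and 0 of them were lower, and DESeq2 called 22 higher and 0 lower. For neither of these settings was the share of all genes counted. The 4 genes over 2-fold higher were Pold1, Rrm2, Pole2 and Timeless, where 4.47% of all genes tested were. The difference was positive for 46 of the 53 genes and negative for 7, and the share of all genes with a positive difference was not counted. In 23 genes all RA-deficient libraries exceeded all RA-sufficient ones (20.1% of all genes tested did) and in 1, Rpa3, they were all below (27.3%).

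**Figure D5:**
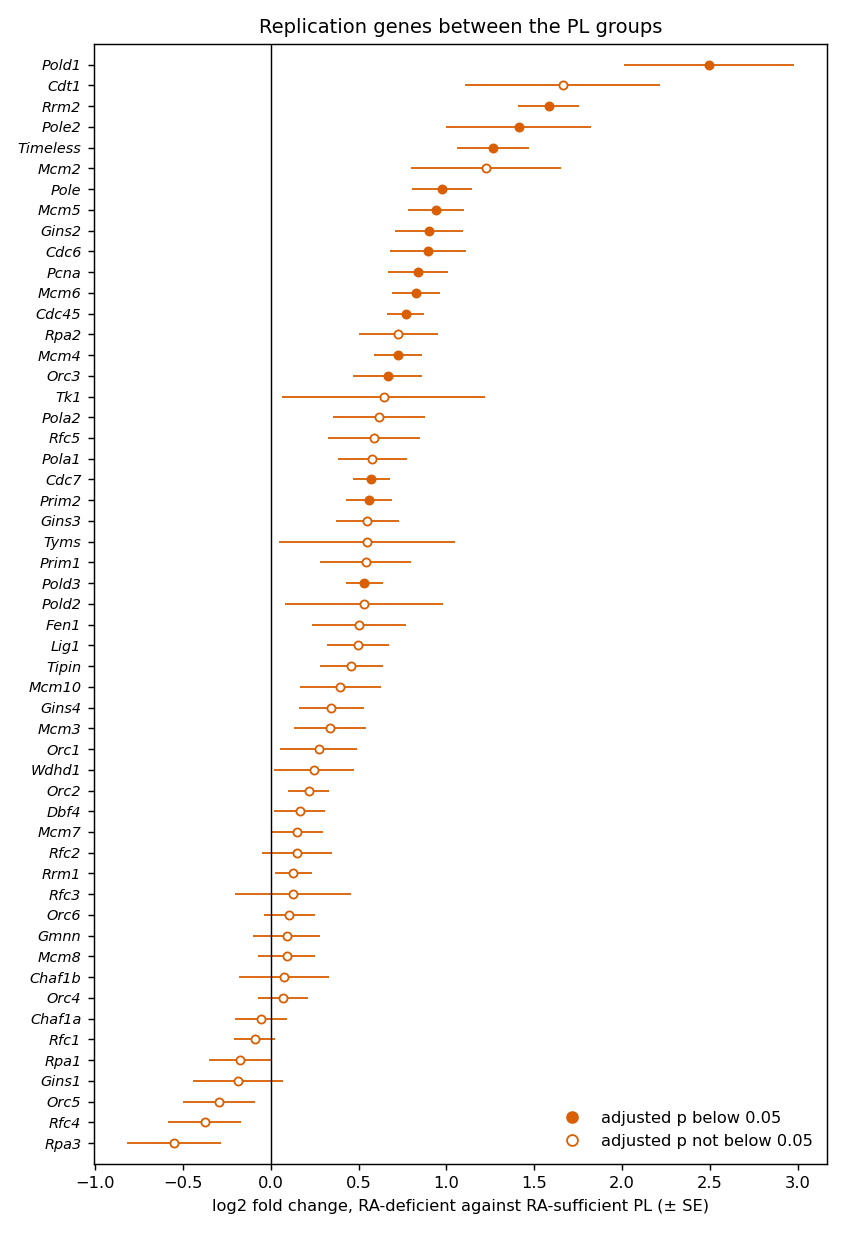
Log2 fold change (± SE, 3 libraries a group) of RA-deficient against RA-sufficient PL for the 53 replication genes in order of size, filled where the adjusted p was below 0.05. All 16 filled points lie right of 0, from Pold3 at 0.53 to Pold1 at 2.495.

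Scaled by library size alone, 11 were higher and 0 lower, with a median of 0.35 over the replication genes and -0.27 over all genes. The count also depended on single libraries. It was 30 without RA-deficient replicate 3, with all 16 genes kept, 10 without RA-deficient replicate 2, and 6 without RA-sufficient replicate 2. The share of all genes called was not counted in these fits or under the other scaling. Mcm5, Mcm6, Cdc45, Pole, Rrm2 and Timeless passed whichever of the 6 libraries was left out. The other 10 passed in 5 fits for Mcm4, 4 for Gins2, Cdc7, Pold1, Pold3 and Pcna, and 1 for Orc3, Cdc6, Prim2 and Pole2. With RA-deficient replicate 3 as the only library of its group, assumed to vary like the RA-sufficient ones, a comparison added after its markers were seen, 7 of the 16 passed, the median was 0.28, and Rrm2 was still higher (log2 difference 1.24, adjusted p = 0.00759 by edgeR). In 14 genes RA-deficient replicates 1 and 2 exceeded every RA-sufficient library and replicate 3 did not, a pattern found in 10.0% of all genes tested. They were Mcm2, Orc1, Orc4, Cdt1, Pola2, Prim1, Pold2, Rfc3, Rfc5, Fen1, Tyms, Tk1, Wdhd1 and Chaf1a. In these replicates Kit and Dmrt1 were also above every RA-sufficient library, as was Dmrt1 in replicate 3, and the part of this in the pattern was not tested.

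Other genes of the pathway, from 6 lists of 68 genes of which 67 were in the table, were tested in the same fits. Against In/B with RA, 36 of 67 tested were lower (53.7%, against 31.2% of all genes tested) and 11 higher (16.4% against 33.8%). Without RA, 22 of 66 were lower (33.3% against 18.3%) and 16 higher (24.2% against 18.4%). Between the PL groups 17 were higher without RA (25.4% against 11% of all genes tested) and 7 lower (10.4% against 12.6%). The share that was lower between the PL groups was thus near that of all genes tested. Of the 10 E2F and DP factors, 9 were lower and 1 higher with RA (90% and 10%, beside 31.2% and 33.8% of all genes). Without RA 5 were lower and 1 higher (50% and 10%, beside 18.3% and 18.4%). E2f7, a repressor of the family, fell in both (-3.67 ± 0.22, adjusted p = 1.1e-05 and -2.46 ± 0.17, adjusted p = 6.89e-05), as did the activator E2f3 (-2.34 ± 0.15, adjusted p = 1.3e-05 and -1.76 ± 0.31, adjusted p = 0.00322). Ticrr, which recruits CDC45 to origins, rose in both (1.18 ± 0.16, adjusted p = 0.00026 and 2.06 ± 0.12, adjusted p = 3.85e-05), at 124, 148 and 153 CPM in In/B, 245, 357 and 321 in RA-sufficient PL and 524, 512 and 535 in RA-deficient PL. Rrm2b, the small reductase subunit made outside S phase, also rose in both (1.32 ± 0.24, adjusted p = 0.00145 and 1.998 ± 0.22, adjusted p = 0.000397). Ccna2, cyclin A2 of S phase and mitosis, fell in both (-2.92 ± 0.16, adjusted p = 1.1e-05 and -2.35 ± 0.29, adjusted p = 0.000671). Of 15 mitosis genes, 11 were lower and 2 higher with RA (73.3% and 13.3%, beside 31.2% and 33.8% of all genes). Without RA 8 were lower and 3 higher (53.3% and 20%, beside 18.3% and 18.4%), so the share that was higher was near background. The median log2 fold change of the 15 mitosis genes was -1.06 with RA and -1.10 without. Their summed level, in which abundant genes weigh most, did not follow these values. It was 5079, 5678 and 5529 CPM in In/B and 3402, 5954 and 5771 in RA-sufficient PL. In RA-deficient PL the sum was 6466, 6361 and 9612 CPM, above every In/B library, though more of the 15 genes were lower than higher. Rbl2, which encodes the pocket protein p130, was at 4.31, 8.32 and 8.53 CPM in In/B, 47.3, 32.9 and 30.3 in RA-sufficient PL and 5.72, 3.29 and 8.70 in RA-deficient PL, rose with RA (2.44 ± 0.31, adjusted p = 0.000199) and was lower in RA-deficient than in RA-sufficient PL (-2.66 ± 0.41, adjusted p = 0.00559). Cdkn1a, the CDK inhibitor p21, was also lower without RA (-1.88 ± 0.43, adjusted p = 0.0207), and Chtf18, a subunit of an alternative clamp loader, was higher (1.78 ± 0.39, adjusted p = 0.0192). The sum of Sertoli markers was likewise highest in RA-sufficient PL, at 3874, 2948 and 3004 CPM, and its part in Rbl2 and Cdkn1a was not tested.

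Among the 44 genes with a RefSeq promoter, 29 held an E2F-type word in the window and 15 did not. In RA-sufficient PL the median log2 fold change against In/B was -0.49 for the former and -0.92 for the latter. Without RA it was -0.10 and -0.35, and between the PL groups 0.50 and 0.55. These medians are descriptions with no test, over genes that were not drawn at random.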

How the data were processed

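The deposited table holds the authors' raw read counts for 24505 genes in 9 libraries, and all 9 columns were matched by name. They made TruSeq Stranded mRNA libraries, read from a single end, trimmed the reads with cutadapt 1.9, aligned them to mm9 with STAR 2.5.2b and counted genes with featureCounts. The annotation and the strand setting are not given in the sources used here. The labels give treatment with the inhibitor of RA synthesis through P11, and the methods through the day before.

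From the counts, pairs of groups with 3 libraries each were tested with edgeR 4.0.16 in R 4.3.3, with TMM scaling, filterByExpr, the quasi-likelihood test and Benjamini-Hochberg adjustment over all genes tested. The study used DESeq2, which was run here as an alternative (version 1.42.0). The SE was taken from the log2 fold change and the F statistic. CPM per kilobase used the exonic length of GENCODE M1 genes. The fits were tested on simulated data. Total counts ran from 12612959 to 27042274 per library, at which 3 counts correspond to 0.111 to 0.238 CPM. The replicate numbers were not used to pair libraries. Alternatives were other scalings, filters, thresholds, one fit of all libraries, the replicate number as a block, DESeq2, and each library left out. The genes and lists were chosen with earlier results of these data known. Values in every library are given for the member with the lowest p of its role, the 5 largest changes, members called against the majority of their role, and Mcm2, Mcm8, Cdc6, Cdt1, Orc1, Pcna, Rrm2, Tk1 and Gmnn. Values named for other genes were chosen after they were seen. Figures were drawn with matplotlib.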

Additional observations from a re-analysis of the deposited data

Results flagged for a closer look

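The effect of passing from In/B to PL differed between the RA-sufficient and RA-deficient groups, by edgeR's test of the difference itself (adjusted p below 0.05), in 16 replication genes. The log2 difference of RA-deficient from RA-sufficient PL was 2.5 for Pold1, 1.58 for Rrm2, 1.41 for Pole2 and 1.26 for Timeless. It was 0.97 for Pole, 0.94 for Mcm5, 0.90 for Gins2, 0.89 for Cdc6, 0.84 for Pcna, 0.83 for Mcm6, 0.77 for Cdc45, 0.72 for Mcm4 and 0.67 for Orc3. The smallest were 0.57 for Cdc7, 0.56 for Prim2 and 0.53 for Pold3. All RA-deficient libraries lay above all RA-sufficient ones in each of the 16, which adds no support, since the same values chose these genes. Of these 16 calls, 6 held whichever of the 6 libraries was left out. With 3 libraries a group, the gap of a single library within its group was not tested.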

How the results depend on the processing

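With the replicate number as a block, 37 of 38, 30 of 32 and 15 of 16 replication genes kept their call in RA-sufficient PL against In/B, RA-deficient PL against In/B and between the PL groups. Deviations of same-numbered libraries correlated at -0.318 to -0.253, -0.17 to 0.236 and -0.138 to 0.052, so the numbers did not pair them. Requiring a 2-fold change left 1 higher and 21 lower, 5 higher and 12 lower, and 4 higher. An adjusted p below 0.01 left 1 higher with RA, and 7 between the PL groups. Scaled by library size only, the RA-deficient against In/B comparison had 7 higher, a median of -0.64 and Pcna at -0.10, and between the PL groups Mcm8 was at -0.095 and Gmnn at -0.092. Upper quartile scaling moved the median of all genes with RA from 0.04 to 0.15.

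Leaving out each library in turn gave 1 to 6 genes higher with RA, 6 to 30 higher between the PL groups, and 9 to 33 other pathway genes between the PL groups, and the cause was not tested. Shares of all genes called were counted in the main fits only. Over the same fits Orc1 ran from -0.37 to 0.088 against In/B without RA, positive without RA-deficient replicate 3, and Gmnn from -0.027 to 0.195 between the PL groups, negative without RA-deficient replicate 3 or RA-sufficient replicate 2. With RA-deficient replicate 3 alone, chosen after seeing the data, the medians were -0.52 against In/B and 0.28 between the PL groups, with 7 replication and 10 other pathway genes called between them, and Mcm2, Orc1 and Tk1 were at -0.14, -0.18 and -1.26. Calls that held in all 6 such fits numbered 31 of 38, 24 of 32 and 6 of 16.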
